A study of Mus musculus with 8 samples.

Results

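The genes described here encode the MHC class II antigen presentation machinery of the mouse. They are the classical chains H2-Aa, H2-Ab1 and H2-Eb1, the peptide editor H2-DMa, H2-DMb1 and H2-DMb2, the editor's inhibitor H2-Oa and H2-Ob, the invariant chain gene Cd74 and the transactivator gene Ciita. The 10 genes were named by function. A gene was measured where an array probe set carried its symbol and no other, which held for 9 of the 10 among 22180 genes tested. The probe set that names Cd74 also names a microRNA, so Cd74 was left out. None of the 9 had more than 1 such probe set. A further probe set names H2-Oa together with BC051537 and was left out.

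RNA came from the middle colon of 8 female mice, 9 weeks old, 4 Trim58+/+ (wild type) and 4 Trim58-/- (knockout), all listed under the strain C57BL/6-Trim58tm2313Arte. The knockout is complete and not restricted to a cell type. TRIM58 belongs to the tripartite motif proteins, many of which attach ubiquitin. Every mouse drank 4% dextran sulfate sodium (DSS), which injures the colon epithelium, over 7 days, then plain water over 5 days, and its colon was sampled on day 12. Each mouse gave 1 whole-transcript Affymetrix array, so the replicates are separate animals, and no untreated colon was compared.

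Array medians ran from 5.73 to 5.83 (log2), and the number of arrays limits the precision. The colon epithelial marker Krt20 read between 11.84 and 12.12 on every array. Trim58 did not separate the genotypes (log2 difference -0.07, standard error 0.12, limma adjusted p = 0.839). The position of its probes relative to the deletion was not analysed here, so its level does not check the labels. Genes of pancreatic acinar cells (7 of 10 measured, all 7 with a difference above 0) averaged 11.17, 12.12 and 11.81 in knockout replicates 1, 2 and 4, against 5.65 in knockout replicate 3 and 5.75 to 5.89 in wild type.

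MHC class II molecules are paired alpha and beta chains that carry peptides from the endosome to the cell surface and show them to CD4 T cells. The invariant chain (Cd74) blocks the groove until the endosome. There the H2-DM pair removes the remaining fragment and edits the peptide, and the H2-DO pair, made chiefly by B cells, holds H2-DM back. The non-DNA-binding factor CIITA, recruited by the RFX, CREB and NF-Y complexes at paired X and Y boxes upstream of these genes, switches the set on. B cells, dendritic cells and macrophages make class II molecules constitutively or when activated, and interferon gamma induces them in other cells, including the colon epithelium.

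The upstream sequences are shown because the X and Y boxes are the feature these genes are known to share. RefSeq-derived windows (build GRCm38.p6, 250 bases before to 50 after each start) were at hand for 7 of the 10 genes. A Y box match, TGATTGG, lay on the coding strand before the start in 6 of the 7. The 6 stretches below run 5′ to 3′ and are aligned on that match, with capitals for TGATTGG, for X box letters (AAC, any 2 bases, ATGATGC) and for the cAMP response element TGACGTCA. They lie on chromosome 17, at chr17:34287854-34287923 (minus strand) for H2-Aa and, on the plus strand, chr17:34305756-34305825 for H2-Eb1, chr17:34153078-34153147 for H2-DMb1, chr17:34145107-34145176 for H2-DMb2, chr17:34092284-34092353 for H2-Oa and chr17:34238796-34238865 for H2-Ob.
H2-Aa: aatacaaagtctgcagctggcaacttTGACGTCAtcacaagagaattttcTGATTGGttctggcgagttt
H2-Eb1: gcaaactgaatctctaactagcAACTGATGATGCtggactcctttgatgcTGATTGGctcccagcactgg
H2-DMb1: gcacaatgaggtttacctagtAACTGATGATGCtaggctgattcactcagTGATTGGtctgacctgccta
H2-DMb2: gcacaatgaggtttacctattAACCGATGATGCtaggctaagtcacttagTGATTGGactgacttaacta
H2-Oa: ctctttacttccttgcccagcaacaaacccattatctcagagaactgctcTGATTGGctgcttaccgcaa
H2-Ob: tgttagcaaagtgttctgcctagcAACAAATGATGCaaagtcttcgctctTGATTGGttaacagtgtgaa

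Relative to the gene start, the first base of TGATTGG lay at -45 in H2-Oa, -50 in H2-Aa, -59 in H2-Ob, -61 in H2-Eb1, -63 in H2-DMb1 and -92 in H2-DMb2. Between the X box letters and TGATTGG stood 14 bases in H2-Ob, 16 in H2-Eb1 and 17 in H2-DMb1 and in H2-DMb2. The H2-DMb1 and H2-DMb2 stretches were identical at 61 of 70 positions (87.1%), and the other pairs at 27.1% to 41.4%. Neither of the 2 windows of H2-DMa held any of the 3 motifs. On either strand, TGATTGG was found in 7.82% of all 32851 windows, TGACGTCA in 1.79% and the X box letters in 0.0396%. The X box letters followed by TGATTGG within 40 bases on the same strand were found in 4 of 27025 genes, namely H2-Eb1, H2-DMb1, H2-DMb2 and H2-Ob. The letters were written with these windows in view, so this count is a description. H2-Aa and H2-Oa held TGATTGG without the X box letters as spelled, and the 3 motifs do not overlap each other.

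The comparison of genotypes describes how the class II genes differed between Trim58 knockout and wild type in the DSS-treated colon. Knockout replicates 1, 2 and 4 carried the pancreatic signal and no wild type array did. On those arrays the genotype and the pancreatic signal cannot be told apart. All 9 measured genes had a higher mean in the knockout, by 0.08 to 0.95 on the log2 scale, where 46.1% of all genes tested had a difference above 0. With limma and Benjamini-Hochberg adjustment over the 22180 genes, 0 of the 9 passed the 0.05 threshold (0.392% of all genes passed as higher, 0.185% as lower and 0.577% in either direction). At an unadjusted p under 0.05 there were 4 of 9, against 6.22% of all genes in that direction and 14.3% in either. These were H2-DMb1, H2-DMb2, H2-Ob and Ciita. The median difference of the 9 was 0.41, and that of all genes -0.01.

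The classical chains form the peptide-binding molecules themselves, and their genotypes overlapped widely. H2-Aa, the alpha chain of the I-A molecule, read 9.88, 9.51, 8.92 and 10.06 in wild type replicates 1 to 4 and 9.27, 10.06, 10.10 and 9.74 in knockout replicates 1 to 4 (log2). H2-Ab1, its beta chain, read 11.17, 10.82, 10.30 and 11.34 in wild type and 10.54, 11.37, 11.59 and 10.96 in knockout. In both genes wild type replicate 3 was lowest and knockout replicate 1 next, and knockout replicates 2 and 3 were at or just above the highest wild type array. The mean of H2-Aa was 9.59 ± 0.50 in wild type and 9.79 ± 0.39 in knockout (SD, n = 4 each). The log2 differences were 0.20 for H2-Aa and 0.21 for H2-Ab1, with limma adjusted p = 0.778 and 0.782. An exact permutation test (two-sided, 70 possible assignments of the arrays) gave p = 0.571 for H2-Aa and 0.514 for H2-Ab1.

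H2-Eb1, the beta chain of I-E, read 9.23, 9.01, 8.65 and 9.46 in wild type and 8.88, 9.57, 9.61 and 9.13 in knockout. The order of its 8 arrays was that of H2-Aa and H2-Ab1. Its log2 difference was 0.21 (limma adjusted p = 0.695, with p = 0.429 by exact permutation). The 95% intervals of the classical chains ran from -0.35 to 0.76 for H2-Aa, from -0.37 to 0.78 for H2-Ab1 and from -0.23 to 0.66 for H2-Eb1, each of which contains 0. Without wild type replicate 3 the difference of H2-Aa turned to -0.02 and those of H2-Ab1 and H2-Eb1 went to 0.00 and 0.07.

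The peptide editor H2-DM pairs the H2-DMa chain with a beta chain from H2-DMb1 or H2-DMb2. H2-DMa read 7.47, 7.36, 6.96 and 7.77 in wild type and 7.17, 7.68, 7.76 and 7.29 in knockout. The genotypes overlapped throughout and wild type replicate 4 was the highest array. Its log2 difference, 0.08 with a 95% interval of -0.32 to 0.49, was the smallest of the 9 (limma adjusted p = 0.888, with p = 0.714 by exact permutation). The difference turned to -0.06 without wild type replicate 3 and to -0.01 without knockout replicate 3.

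H2-DMb1 read 5.64, 5.42, 5.13 and 5.27 in wild type and 5.70, 6.28, 6.14 and 5.97 in knockout. This was a low signal, with every wild type array and knockout replicate 1 below the array medians (5.73 to 5.83). H2-DMb1 was the 1 gene of the 9 whose knockout arrays all lay above the wild type arrays. This held for 3.79% of all genes tested, and 8.81% were without overlap in either direction. Wild type replicate 1 and knockout replicate 1 lay close to each other at the border. Its mean was 5.37 ± 0.22 in wild type and 6.02 ± 0.25 in knockout (SD, n = 4 each), a 1.58-fold difference (95% interval 1.27 to 1.97). The log2 difference, 0.66 (standard error 0.14), missed the threshold (limma adjusted p = 0.0792). Exact two-sided permutation gave p = 0.0286, the smallest that 4 against 4 arrays allow.

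H2-DMb2 showed the largest difference of the 9. It read 8.41, 7.85, 7.10 and 7.96 in wild type and 8.31, 9.08, 9.03 and 8.69 in knockout. Knockout replicate 1 lay just below wild type replicate 1, and the other 3 knockouts lay above every wild type array. Its mean was 7.83 ± 0.55 in wild type and 8.78 ± 0.35 in knockout (SD, n = 4 each). This difference of 0.95 (log2, standard error 0.26, 1.93-fold) did not pass, at a limma adjusted p = 0.127 and p = 0.0571 by exact permutation. Without wild type replicate 3 the difference was 0.70. H2-DMb1 and H2-DMb2 are close copies, so RNA of either may have bound the probes of the other, which was not tested.

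H2-DO, the partner that restrains H2-DM, is formed by H2-Oa and H2-Ob. H2-Ob read 7.25, 6.86, 6.49 and 7.01 in wild type and 7.16, 7.70, 7.63 and 7.61 in knockout. Knockout replicates 2, 3 and 4 lay together above all wild type arrays, and knockout replicate 1 lay within their range. The log2 difference was 0.62 with a 95% interval of 0.25 to 0.99 (1.54-fold, limma adjusted p = 0.125, with p = 0.0571 by exact permutation). H2-Oa, the alpha chain, read 6.64, 6.64, 5.96 and 6.79 in wild type and 6.51, 7.09, 7.09 and 6.98 in knockout. Knockout replicate 1 lay below 3 of the wild type arrays, whereas in H2-Ob it lay above 3 of them, and the other knockouts lay above all wild type arrays in both genes. Its log2 difference was 0.41 with a 95% interval of -0.01 to 0.83 (limma adjusted p = 0.367, with p = 0.114 by exact permutation). It went to 0.22 without wild type replicate 3.

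Ciita, the transactivator, read 7.51, 7.16, 6.92 and 7.43 in wild type and 7.42, 7.73, 7.99 and 7.65 in knockout. Knockout replicate 1 lay among the wild type arrays, just below wild type replicates 1 and 4, and the other 3 knockouts lay above all of them. The difference was 0.44 (log2, standard error 0.15, 1.36-fold), with a limma adjusted p = 0.208 and p = 0.0857 by exact permutation. The probe set measures the gene as a whole and does not tell its promoters apart.

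**Figure D1:**
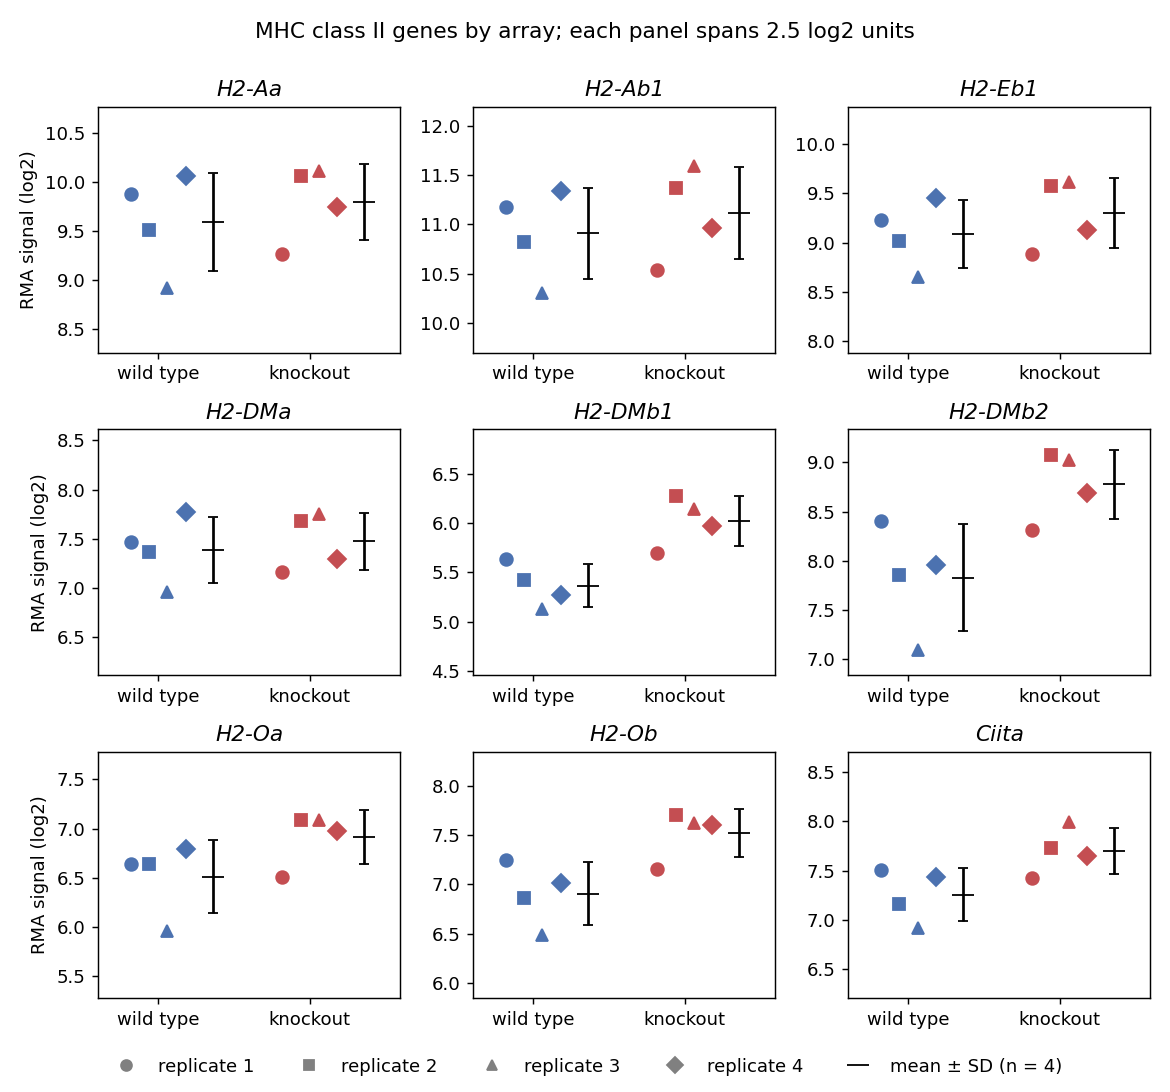
RMA signal (log2) of the 9 class II genes on each array, with wild type in blue, knockout in red, 1 symbol per replicate number and the mean ± SD (n = 4) beside each group. Wild type replicate 3 is the lowest array in every panel, and only in the H2-DMb1 panel do all knockout arrays lie above all wild type arrays.

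**Figure D2:**
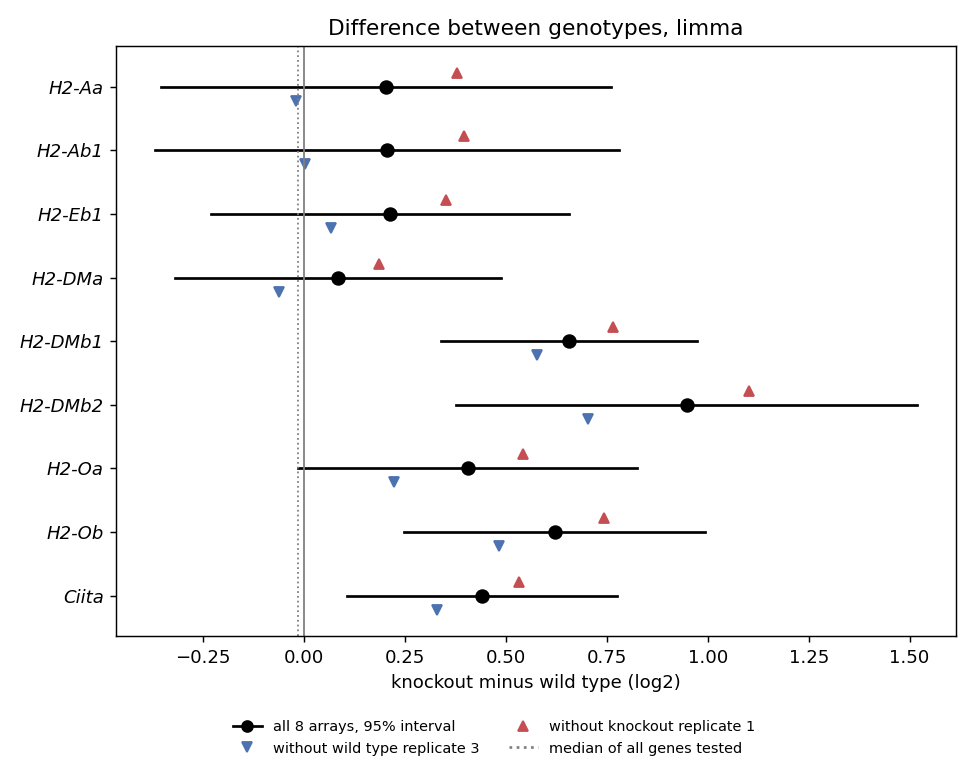
Knockout minus wild type on the log2 scale for each class II gene, as limma's estimate with its 95% interval and, as triangles, the estimates without wild type replicate 3 or without knockout replicate 1; the dotted line is the median of all genes tested. H2-Aa, H2-Ab1, H2-Eb1 and H2-DMa lie at 0.08 to 0.21 with intervals across 0, and H2-DMb1, H2-DMb2, H2-Ob and Ciita at 0.44 to 0.95 with intervals above 0 before adjustment for the number of genes.

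To compare the genes among themselves, each gene was set against each other gene on the same array, and the genotypes were compared over the 36 pairs by exact two-sided permutation. In 9 of the 36 pairs the 4 knockout arrays did not overlap the 4 wild type arrays (exact permutation p = 0.0286 each, the smallest possible), but none passed adjustment over the 36 (Benjamini-Hochberg p = 0.114). Of the 9 pairs, 5 involved H2-DMa, the gene with the smallest difference of the 9. It was lower relative to H2-DMb1, H2-DMb2, H2-Oa, H2-Ob and Ciita. Another 3 set H2-DMb2 above H2-Aa, H2-Ab1 and H2-Eb1, and 1 set H2-DMb1 above H2-Eb1. The 9 pairs reuse the same few genes and are not separate results. How often pairs of other genes were without overlap was not worked out. The difference of H2-DMb2 exceeded that of H2-DMa by 0.86 on the log2 scale, and that of H2-DMb1 by 0.57. H2-Aa and H2-Ab1 differed from each other by 0.00 (exact permutation p = 0.971) and H2-Ob from H2-Oa by 0.22 (p = 0.0571, exact permutation, adjusted p = 0.129).

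**Figure D3:**
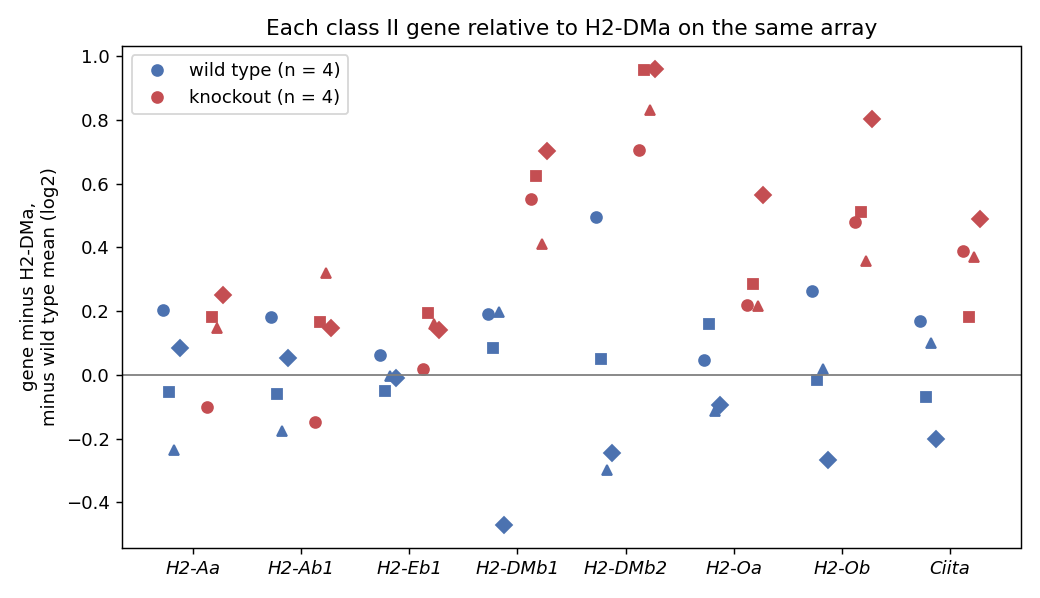
Each class II gene minus H2-DMa on the same array, shifted so that the wild type mean is 0 (log2), with wild type in blue, knockout in red and circle, square, triangle and diamond for replicates 1 to 4. The knockout arrays lie above all wild type arrays for H2-DMb1, H2-DMb2, H2-Oa, H2-Ob and Ciita and overlap them for H2-Aa, H2-Ab1 and H2-Eb1.

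The 9 genes varied together from mouse to mouse. Wild type replicate 3 was the lowest of the 8 arrays in 9 of 9 genes, against 13.1% of all genes tested, and knockout replicate 1 was the lowest knockout in 9 of 9, against 25.3% of all genes. Knockout replicate 3 was the highest of the 8 in 5 genes, knockout replicate 2 in 3 and wild type replicate 4 in 1. Relative to the wild type mean, the mean over the 9 genes stood at 0.26, -0.02, -0.49 and 0.25 in wild type replicates 1 to 4 and at 0.01, 0.64, 0.68 and 0.35 in knockout replicates 1 to 4. Its difference between genotypes was 0.42, or 0.26 without wild type replicate 3 and 0.56 without knockout replicate 1. Knockout replicate 3, which lacked the pancreatic signal, stood highest, and lay above the wild type mean in every one of the 9 genes, by 0.37 in H2-DMa and by more in the other 8.

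Class II regulators other than Ciita were measured with 16 of 16 genes. Of these, 0 passed limma's adjusted test, 3 were higher and 1 lower at an unadjusted p under 0.05, and their median difference was 0.10. Rfxank, a subunit of the RFX complex, read 8.28, 8.72, 8.36 and 8.64 in wild type and 8.02, 8.02, 8.23 and 8.14 in knockout. Every knockout array was below every wild type array, by -0.40 in the mean (limma adjusted p = 0.133). The other RFX subunits, Rfx5 and Rfxap, had differences of 0.06 and 0.02 (limma adjusted p = 0.742 and 0.952). Pax5, a transcription factor of B cells, differed by 0.82 and Irf8, a factor of myeloid and B cells, by 0.35 (limma adjusted p = 0.0924 and 0.244).

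Antigen processing genes differed little in their mean levels. Of 10 endosomal genes 0 passed limma's adjusted test and 2 were higher at an unadjusted p under 0.05, with a median difference of 0.09. Lgmn, an endosomal protease, differed by 0.45, and Sppl2a, which cleaves the last invariant chain fragment, by 0.26 (limma adjusted p = 0.200 and 0.283). Tcirg1, a proton pump subunit, differed by 0.12 (limma adjusted p = 0.563). Ctss, the protease that trims the invariant chain, lay between 11.18 and 11.55 on all 8 arrays with a difference of 0.04 (limma adjusted p = 0.902).

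Costimulatory and checkpoint ligands, which accompany class II molecules on presenting cells, all had differences above 0 (9 of 9, median 0.28). Of these 0 passed limma's adjusted test, and 3 were higher at an unadjusted p under 0.05. Cd86 read 6.33, 5.82, 5.73 and 6.35 in wild type and 6.39, 6.92, 6.87 and 6.53 in knockout, with no overlap and means that differed by 0.62 (limma adjusted p = 0.137). Cd40 and Cd80 differed by 0.52 and 0.56 (limma adjusted p = 0.136 and 0.273). On the T cell side, which reads class II molecules, 0 of 9 genes passed, 1 was higher at an unadjusted p under 0.05 and the median difference was 0.10. Icos differed by 0.42, Ctla4 by 0.48 and Cd28 by -0.19 (limma adjusted p = 0.238, 0.379 and 0.597).

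Interferon gamma, the known inducer of Ciita, had a low signal between 4.90 and 5.57 with a difference of 0.13 (Ifng, limma adjusted p = 0.740). Of 6 measured interferon gamma signalling genes 0 passed limma's adjusted test and 1 was higher at an unadjusted p under 0.05 (median 0.13). Jak2 and Jak1, without overlap, and Ifngr1 differed by 0.17, 0.13 and -0.23 (limma adjusted p = 0.338, 0.451 and 0.380). Its 11 measured target genes all had differences above 0, with a median of 0.94, 0 past limma's adjusted test and 7 higher at an unadjusted p under 0.05. Gbp5, a guanylate-binding protein, read 6.33, 5.45, 5.42 and 5.87 in wild type and 6.74, 7.86, 7.41 and 6.38 in knockout, with no overlap. Its log2 difference was 1.33, and Cxcl10 and Iigp1 differed by 1.44 and 1.51 (limma adjusted p = 0.0908, 0.0982 and 0.114).

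The targets did not follow the class II genes in every mouse. The target list stood highest in knockout replicates 2 and 3, at 8.59 and 8.57, like most class II genes. Their mean was 7.82 in wild type replicate 1, above knockout replicates 1 and 4 at 7.65 and 7.42. The class II mean, relative to wild type, was also higher in wild type replicate 1 (0.26) than in knockout replicate 1 (0.01). In knockout replicate 4 the class II mean (0.35) was above that of wild type replicate 1. The lowest array of the targets was wild type replicate 2, at 6.65, and that of the class II genes was wild type replicate 3. Wild type replicate 3 was the lowest wild type array in 5 of 11 targets. Class I presentation genes, which show internal peptides to CD8 T cells, had a median difference of 0.14 over 11 measured genes, with 0 past limma's adjusted test and 0 at an unadjusted p under 0.05. Tap1, the peptide transporter, Nlrc5, the class I transactivator, and H2-Q4 differed by 0.57, 0.54 and 0.34 (limma adjusted p = 0.373, 0.389 and 0.375).

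Markers of the cells that carry class II molecules moved with the class II genes to different degrees. In bulk tissue a change in the number of cells of a type and a change in RNA per cell cannot be told apart. B cell markers were higher in all 10 measured, by 0.47 to 1.57 with a median of 0.86. Of these 1 passed limma's adjusted test and all 10 an unadjusted p under 0.05. The list mean lay between 6.20 and 7.49 in wild type and between 7.51 and 8.12 in knockout. Cr2, the complement receptor of B cells and follicular dendritic cells, read 7.22, 6.70, 5.66 and 6.23 in wild type and 7.75, 8.09, 8.37 and 7.88 in knockout (log2 difference 1.57, limma adjusted p = 0.0440). Its call held in 1 of the 8 fits without 1 array, the one without wild type replicate 1, and in 5 of the 10 other alternatives. Bank1 and Ms4a1, B cell genes, differed by 1.33 and 1.44 without overlap (limma adjusted p = 0.0584 and 0.0613).

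Among wild type arrays replicate 3 was the lowest in 10 of 10 B cell markers and knockout replicate 1 the lowest knockout in 10 of 10, against 27.0% and 25.3% of all genes tested. Other lists shared these ranks in part. Wild type replicate 3 was lowest in 10 of 11 macrophage, 4 of 6 T cell and 8 of 11 class I genes, and knockout replicate 1 in 9 of 11, 6 of 6 and 6 of 11. Cxcl13, the chemokine of B cell follicles, and Madcam1, an adhesion molecule of mucosal vessels, differed by 1.25 and 0.50 without overlap (limma adjusted p = 0.0788 and 0.0797). With Cr2 they are the 3 measured of 6 genes listed for follicles and their stroma, whose mean lay between 7.18 and 8.30 in wild type and 8.63 and 8.98 in knockout. Plasma cells have silenced Ciita. Of their 6 genes, 4 had differences below 0 and 2 above, 0 passed limma's adjusted test and 3 were lower at an unadjusted p under 0.05. These were Jchain at -1.31, Tnfrsf17 at -0.68 and Xbp1 at -0.18 (limma adjusted p = 0.158, 0.115 and 0.313). Tnfrsf17 and Xbp1 were without overlap, and Jchain overlapped. Derl3 and Sdc1 differed by 0.31 and 0.07 (limma adjusted p = 0.594 and 0.843). The part of B cells in the class II differences was not tested.

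Macrophage markers had a median difference of 0.31 over 11 genes, with 0 past limma's adjusted test and 2 higher at an unadjusted p under 0.05. Their list mean lay between 7.66 and 8.62 in wild type and between 8.20 and 8.54 in knockout, so the groups overlapped. Fcgr1, an Fc receptor that interferon gamma induces, differed by 0.70 without overlap (limma adjusted p = 0.175). Csf1r, the receptor macrophages need, and Cd163, a scavenger receptor, differed by 0.47 and 0.30 with overlap (limma adjusted p = 0.346 and 0.351). Of 5 measured monocyte genes 0 passed limma's adjusted test and 2 were higher at an unadjusted p under 0.05, Vcan by 0.66 and Ccr2 by 0.67, and Fn1 differed by 0.17 (limma adjusted p = 0.110, 0.171 and 0.627). The genotypes did not overlap in Ccr2 and overlapped in Vcan and Fn1.

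Dendritic cell markers overlapped between genotypes, with a median of -0.05 over 10 measured genes, 0 past limma's adjusted test and 0 at an unadjusted p under 0.05. Their mean lay between 6.05 and 6.34 in wild type and between 6.00 and 6.25 in knockout. Siglech, of plasmacytoid dendritic cells, differed by -0.44, Ccr7 by 0.18 and Itgae by -0.15 (limma adjusted p = 0.381, 0.609 and 0.675). T cell genes had a median of 0.01 over 6 measured genes, with 0 past limma's adjusted test and 0 at an unadjusted p under 0.05. Cd4, Cd3e and Cd3g differed by 0.25, -0.11 and 0.15 (limma adjusted p = 0.809, 0.835 and 0.846). Of 5 measured genes of group 3 innate lymphoid cells 0 passed, with 1 higher and 1 lower at an unadjusted p under 0.05. Kit differed by -0.34 without overlap, Il22 by 0.18 and Il23r by 0.09 (limma adjusted p = 0.161, 0.346 and 0.807). The signal of Il22 lay between 1.34 and 1.71 on all 8 arrays, far below the array medians (5.73 to 5.83).

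Epithelial markers were slightly below wild type in 6 of 6 genes, with differences of -0.12 to -0.06, 0 past limma's adjusted test and 0 at an unadjusted p under 0.05. Epcam, Krt8 and Cldn7 differed by -0.12, -0.11 and -0.09 (limma adjusted p = 0.496, 0.542 and 0.647), and of these only Epcam was without overlap. Wild type replicate 3, lowest in every class II gene, was the lowest wild type array in 0 of the 6.

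**Figure D4:**
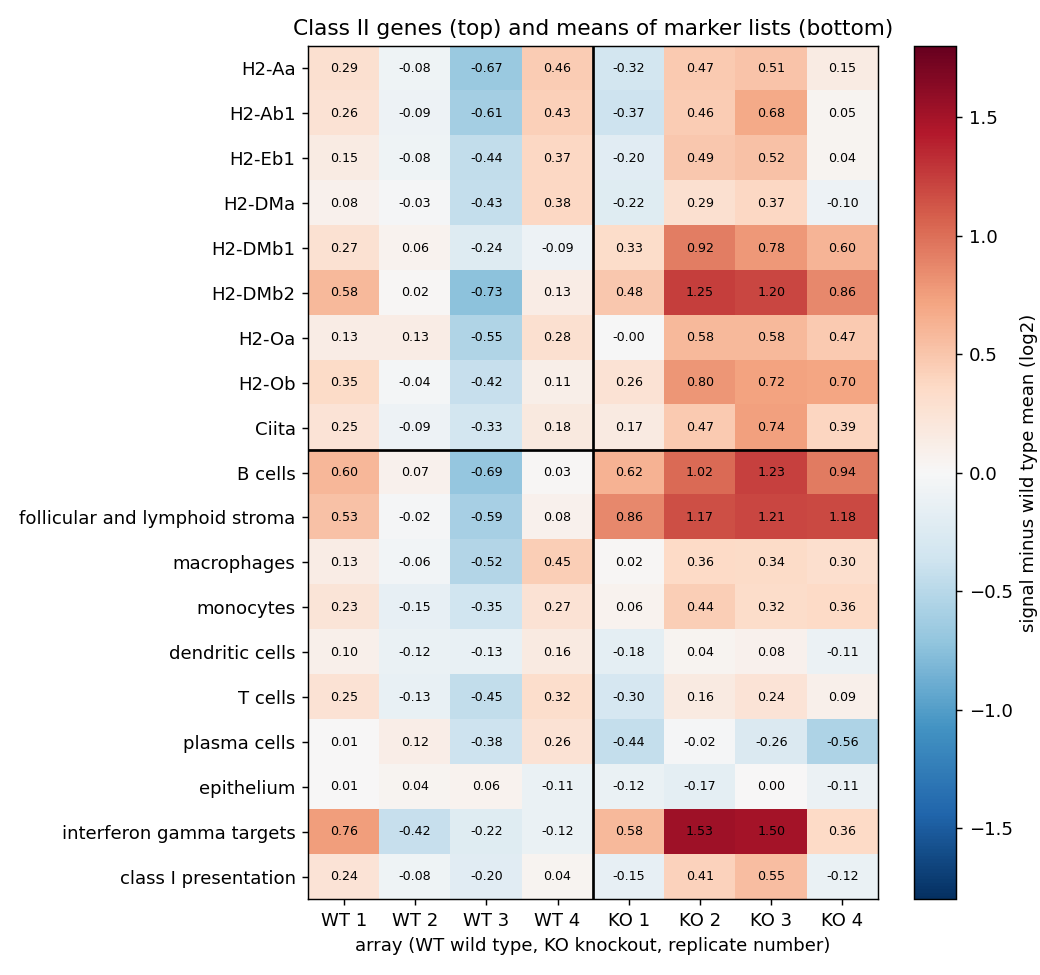
Signal of each class II gene (top) and mean of each marker list (bottom) on every array, minus the wild type mean (log2), in blue below and red above it. The class II rows are lowest in wild type replicate 3 and highest in most cases in knockout replicates 2 and 3. The B cell row, the follicular and lymphoid stroma row and the class I presentation row are also lowest in wild type replicate 3 and highest in knockout replicate 3.

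Within the class II set, the correlation between genes over the 8 arrays is given as a description. Among H2-Aa, H2-Ab1, H2-Eb1 and H2-DMa the 6 pairs had r between 0.955 and 0.985. Among H2-DMb1, H2-DMb2, H2-Oa, H2-Ob and Ciita the 10 pairs had r between 0.811 and 0.986. Between these sets the 20 pairs had r between 0.467 and 0.896. After each genotype was centred on its own mean, r lay between 0.959 and 0.988 in the first set, between 0.734 and 0.967 in the second and between 0.646 and 0.958 across them. The centred medians were 0.977, 0.883 and 0.885, so the second set was no more alike within itself than across sets once the genotype means were removed. The sets were formed after the differences were seen, and all pairs share the 8 mice and their overall immune signal.

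Outside the class II set, 1270 genes with a range of at least 1 log2 unit were searched, leaving out Gm, Rik and olfactory receptor symbols. Among them, those most like the mean of the 9 over the 8 arrays were Cyfip2 (r = 0.996), Cd52 (0.987), P2ry10 (0.984), Stat4 (0.983), Sting1 (0.982), Themis2 (0.980), Laptm5 (0.979) and Cd69 (0.973). Cyfip2 regulates the actin skeleton, Cd52 is a surface protein of lymphocytes and Laptm5 a lysosomal protein of blood cells. Cyfip2 read 7.13, 6.75, 6.34 and 7.05 in wild type and 6.80, 7.48, 7.45 and 7.17 in knockout, a difference of 0.41 (limma adjusted p = 0.371). After centring each genotype on its own mean, 6 of these 8 stayed among the 8 most alike, joined by Trav9d-3, a T cell receptor segment (r = 0.993), and Cd3g (0.978).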

How the data were processed

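The authors deposited log2 values. RMA and Affymetrix Expression Console 1.4 are named in the submitters' processing notes, and the arrays were hybridised from 200 ng of RNA per the labels' protocols. RMA compresses differences near background. Filters, scan dates and raw scanner files were not used here. Of 41345 probe sets, 23521 carried 1 gene symbol, 1814 several and 16010 none in the platform annotation. Symbols were updated by Entrez identifier (23328 matched, assembly GRCm38.p6), and the probe set with the highest mean over the 8 arrays was kept, which left 22180 genes. Values were used as deposited.

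The 4 knockout arrays were tested against the 4 wild type arrays in limma 3.58.1 (R 4.3.3) without covariates, with Benjamini-Hochberg adjustment over all genes at 0.05, and single genes by exact permutation. The script was tested on simulated data. Lists are described by counts and medians. The class II genes, the lists and the alternatives were chosen with earlier results of these data known. Named genes are the class II genes, Trim58, the called genes and the 3 smallest p of each list, and the 8 genes of highest correlation by each of 2 measures with a range of at least 1 log2 unit. Gm, Rik and olfactory receptor symbols were left out of the correlation search. Rfx5, Rfxap, Ctss, Ifng, Krt20, Derl3, Sdc1, H2-Eb2 and H2-Ea were named after their values were seen. The alternatives were variance moderation, array weights, normalization, a filter on dim genes, the treatment of probe sets, the replicate block, leaving out each array, and, added after the data were seen, 2 checks of the pancreatic signal.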

Additional observations from a re-analysis of the deposited data

How the results depend on the processing

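None of the 9 class II genes passed the adjusted threshold in any of the 18 alternatives, and the mean difference of the 9 lay between 0.26 and 0.68. The smallest adjusted p was 0.0588, for H2-DMb1 without the dimmest genes. With single arrays left out H2-Aa ranged from -0.020 (without wild type replicate 3) to 0.38, and H2-DMa from -0.061 (without wild type replicate 3) to 0.21, with -0.010 without knockout replicate 3. The count of class II genes under 0.05 by exact permutation, 1 with all arrays, was 0 to 1 with single arrays left out. H2-DMb1 was under 0.05 in 2 of these 8 fits (without knockout replicate 1 or 4). In the others it was at p = 0.0571 by exact permutation. Its knockout arrays lay above its wild type arrays in all 8 fits. With 3 against 4 arrays such separation gives p = 0.0286 or 0.0571 by exact permutation, so these fits do not show it lost. H2-DMb2 was under 0.05 in 1 fit (without wild type replicate 1). Cr2 lost its call with the variance trend, equal array medians, the replicate block and both pancreatic checks (limma adjusted p from 0.0531 to 0.665). Over all genes, 87 were higher and 41 lower, against 24 to 172 and 1 to 80 without single arrays. The lower count was 64 with a variance trend, 69 with array weights and 80 without the dimmest genes. The replicate numbers did not pair the mice (correlations of same-numbered deviations -0.16 to 0.05), and the replicate block gave 56 higher and 8 lower. With the pancreatic mean as covariate 2 were higher and 0 lower (684 and 626 at an unadjusted limma p under 0.05), and with knockout replicate 3 alone against wild type 14 and 0 (682 and 616). With 4 arrays per group, differences of the size seen in the classical chains could not be told from 0.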

Other observations

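A class II gene outside the set, H2-Eb2, a relative of H2-Eb1 with no known presenting role, read 6.68, 6.37, 5.80 and 6.22 in wild type and 6.81, 7.09, 7.16 and 6.89 in knockout. The genotypes did not overlap, and the means differed by 0.72 (log2, standard error 0.17, 1.65-fold). The limma adjusted p was 0.0908 and exact permutation gave p = 0.0286, the smallest possible. Wild type replicate 3 was again the lowest array. H2-Ea, the alpha chain partner of H2-Eb1, is not made in C57BL/6 mice because its promoter is deleted in that haplotype. Its signal lay between 4.25 and 4.66 on all 8 arrays, and its means differed by -0.01 (limma adjusted p = 0.976). H2-Eb2 and H2-Ea were picked with their values in view.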
